A study of Rattus norvegicus with 24 samples.

Results

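The ceramide synthase genes of the rat frontal cortex, and the growth factor gene that shares a locus with one of them, were described across a tungsten inhalation study. The members are Cers1, Cers2, Cers4, Cers5, Cers6 and Gdf1, found by their gene names among the Ensembl rat genes of the deposited tables, 6 of 32883 genes. Cers1 was chosen because its coverage was far lower in the Low tables and because its span overlaps Gdf1, so the difference of these 2 genes between Low and the other groups is a description and was not tested. Each group held 8 adult male Sprague-Dawley rats. The Control group had an aerosol concentration of 0 mg/m3, the Low group inhaled tungsten particles at 5 mg/m3 and the High group at 80 mg/m3, and frontal cortex was taken 24 h after exposure. RNA-Seq of polyadenylated RNA with stranded libraries gave 1 table per rat, and libraries are called here by the numbers of their labels, 49 to 56 for Control, 57 to 64 for Low and 65 to 72 for High. No allele, strain difference or second agent is named in the labels.

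Ceramide synthases join a fatty acyl chain to a sphingoid base, and each prefers chains of a certain length. Cers1 is the neuronal enzyme that makes ceramide with stearoyl chains, Cers2 makes the very long chains of myelin lipids and is rich in oligodendrocytes, Cers4 takes chains of intermediate to long length, and Cers5 and Cers6 make palmitoyl ceramide. Gdf1 is a secreted ligand of the transforming growth factor family that acts with Nodal, and mammalian Cers1 and Gdf1 are known to be read from a single bicistronic transcript.

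Cers1 and Gdf1 occupied nearly the same bases. The tables place Cers1 (ENSRNOG00000062030) on the minus strand of chromosome 16 from 20845576 to 20860789 and Gdf1 (ENSRNOG00000020142) on the same strand from 20845576 to 20860767. All 15192 bases of Gdf1 therefore lay inside the 15214 bases of Cers1, and Cers1 reached 22 bases further at its 5′ end. On that strand the next gene upstream was Cope, a coat protein of Golgi vesicles, 2352 bases away. Upf1, the helicase of nonsense-mediated decay, lay 333 bases past the 3′ ends on the opposite strand, and Ddx49, another helicase, 12853 bases upstream on the opposite strand. The submitters' processing notes name the build mRatBN7.2, but gene positions on chromosome 1 reach 282724300, which is past the end of that chromosome in mRatBN7.2, so all positions are printed as the tables give them and their build is not settled.

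**Figure D1:**
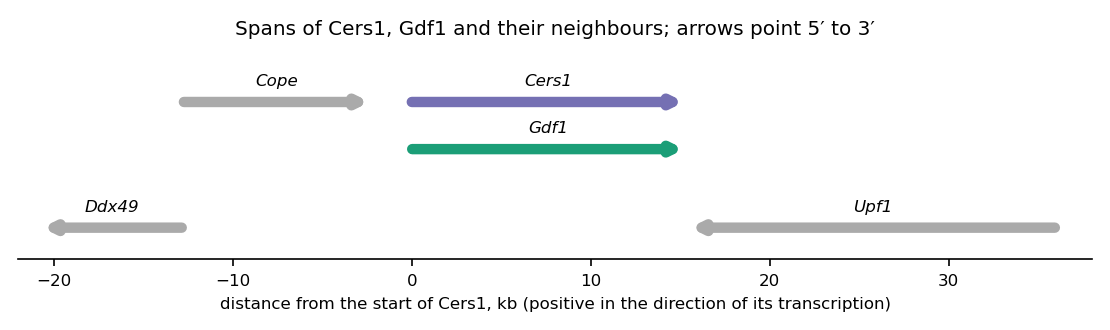
Map of the gene spans around Cers1 in kilobases from its start, with arrows from 5′ to 3′. Gdf1 covers the same stretch as Cers1 on the same strand, and no other listed gene overlaps either.

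RefSeq (GRCr8) also gives both genes a single start. Of 33469 promoter windows in that table, each of 250 bases before and 50 bases from the start, only 4 distinct windows were shared by more than 1 gene, and that of Cers1 and Gdf1 was among them. It is shown because it is the start from which both genes are read, so the window holds no sequence in which they differ. It lies at chr16:19146431-19146730 on the minus strand in GRCr8, 5′ to 3′, with the match to GGGCGG in capitals.

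Cers1 and Gdf1: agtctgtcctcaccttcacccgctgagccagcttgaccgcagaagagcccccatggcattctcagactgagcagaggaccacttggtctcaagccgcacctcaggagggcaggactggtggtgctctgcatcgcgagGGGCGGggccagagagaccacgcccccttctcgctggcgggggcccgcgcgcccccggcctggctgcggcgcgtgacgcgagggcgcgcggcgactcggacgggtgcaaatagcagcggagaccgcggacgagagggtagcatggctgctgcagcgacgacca

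The window held 30 CpG and had a GC content of 69.3%, against a median of 7 CpG and 51.7% over all promoters. GGGCGG, searched on both strands, was found once, and 33.1% of all promoters hold it, while TATAAA, found in 14.2% of all promoters on either strand, was not in the window. The promoters of Cers2, Cers5 and Cers6 were also GC-rich at 76%, 66.7% and 69.3%, with 35, 16 and 30 CpG, and that of Cers4 stood lower at 56% with 7 CpG.

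For comparison between rats, the coverage of each gene, its mean read depth per base, was divided by the sum over all Ensembl genes of the library and multiplied by 1000000, and is called scaled coverage. Being a depth per base, it can be compared between genes, though the order of genes close in level can differ in the FPKM column. In units of 1000000, the sums ran from 1.67 to 2.82 in Control, from 1.64 to 3.07 in Low and from 1.77 to 2.67 in High. The tables hold no counts of reads, and counting error is therefore unknown. The tables also differ in kind, since Control tables hold 46334 to 159573 loci assembled from the reads and those of High list between 50235 and 64010, while each of the 8 Low tables holds 0. The kind of table and the Low exposure cannot be told apart. Summed neuron markers (8 genes, among them Snap25, Slc17a7 and Neurod6) had a Control median of 1917, a Low median of 1967 and a High median of 1882. The neuronal markers of cortex were thus present in all groups but did not move alike. By means in Control, Low and High, Slc17a7 was at 768, 646 and 693 and Neurod6 at 52.4, 75.1 and 51.7. Summed striatum markers ran from 376 to 880 in Control, from 255 to 648 in Low and from 173 to 1432 in High. Libraries 49 and 57 stood apart, lying far below the rest of their group for 1552 and 842 of the 15644 genes with a mean scaled coverage of at least 1, of which 498 were shared (32.1% and 59.1% of each set), and results that rest on them are given with and without them.

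Cers1 was among the well-covered genes in Control and High and was near the lower limit in Low. In Control its scaled coverage was 59.8 at the lowest, 79.7 at the median and 81.9 at the highest, in High 65.4, 72.6 and 80.3, and in Low 0.985, 1.78 and 3.07. The 8 Low libraries lay far below all 16 others, with no overlap. The mean was 74.5 ± 8.78 (SD, n = 8) for Control, 1.83 ± 0.700 (SD, n = 8) for Low and 72.3 ± 5.39 (SD, n = 8) for High, which is 40.7 times higher in Control and 39.4 times higher in High than in Low. On the log2(scaled coverage + 1) scale, the difference of Low from Control was -4.76 and that of Low from High -4.73. In Control, 87.3% of all tested genes had a lower mean than Cers1, and in Low 10.4% had.

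Gdf1 lay at much the same level in the 3 groups. Its scaled coverage was 60.1 at the lowest, 80.2 at the median and 82.5 at the highest in Control, 67.1, 76.4 and 87.5 in Low, and 65.7, 73.0 and 80.8 in High. The ranges of the 3 groups overlapped. The means were 74.9 ± 8.87 (SD, n = 8), 77.8 ± 6.54 (SD, n = 8) and 72.6 ± 5.43 (SD, n = 8), and the differences on the log2 scale were 0.06 for Low from Control and 0.10 for Low from High, beside medians of 0.06 and 0.09 over all genes tested.

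Within each library of Control and High, the 2 genes had almost the same coverage. Cers1 stood at 99.3% to 99.6% of Gdf1 in Control and at 99.4% to 99.5% in High, and at 1.24% to 3.51% in Low (median 2.38%). Gdf1 was above Cers1 in all 24 libraries. Their sum was 149 ± 17.6 (SD, n = 8) in Control and 145 ± 10.8 (SD, n = 8) in High, but 79.6 ± 6.89 (SD, n = 8) in Low, while the larger of both values stayed between 60.1 and 87.5 in every library. Values of overlapping genes are uncertain, since the tables do not say how reads in the shared bases were divided between them. Libraries 49, 50 and 51 were lower than the other Control libraries for both genes, with Cers1 at 65.9, 67.0 and 59.8 against 79.3 to 81.9, while their percentages stayed at 99.4, 99.6 and 99.5.

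The assembled loci carried the same coverage once more. A locus with exactly the span and strand of Cers1 was listed in 8 of 8 Control tables, at 98.5% to 100% of the coverage of Cers1, and in 8 of 8 High tables, at 100% in each. It was in 0 of 8 Low tables, which hold no assembled loci at all. How this locus relates to the coverage listed for Cers1 was not tested.

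**Figure D2:**
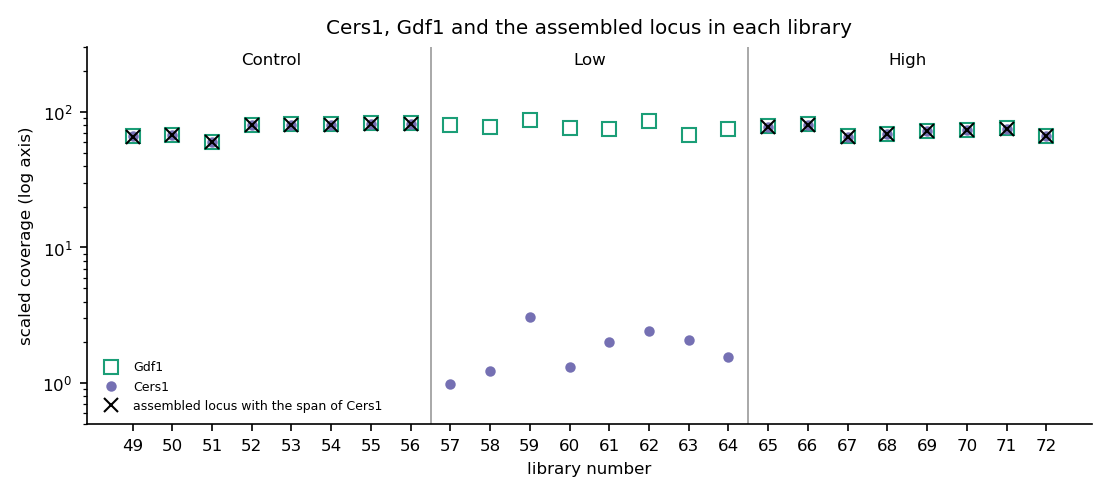
Scaled coverage (log axis) of Cers1 (filled circles), Gdf1 (open squares) and the assembled locus with the span of Cers1 (crosses) in each of the 24 libraries. The 3 symbols coincide in all Control and High libraries, and in Low Gdf1 stays between 67.1 and 87.5 while Cers1 lies between 0.985 and 3.07.

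Other genes that share their bases showed a like pattern. Of 14 pairs of genes that lie on the same strand and share at least 90% of both spans, Cers1 and Gdf1 included, the lower gene reached at least 90% of the higher in 12 pairs in Control and 12 in High, and in 1 pair in Low. Of the 12 pairs that were so in both Control and High, 9 were under 10% in Low. These 9 include Cers1 and Gdf1 themselves and 3 pairs of U3 with AABR07030184 genes that repeat the same Control and Low means (2.73 and 2.72, and 0 and 1.87), and 3 of the other 5 had Control means under 3. Snurf and Snrpn, a further pair known as bicistronic and named here after its values were seen, had mean scaled coverage of 837 and 811 in Control and 842 and 814 in High, and of 684 and 257 in Low. Among all genes tested, 321 of the 1782 that overlap another gene on their own strand had a limma adjusted p under 0.05 and were lower in Low than in Control, which is 18.01%, and 443 of the 13862 with no such overlap, which is 3.196%. In High against Control both counts were 0. These counts are descriptions, since Cers1 was picked from the same contrast. Genes near 0 in Low, as U3 was, could also pass the limit on the mean through Control and High alone. How many of the genes called lower did so was not examined.

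The 5 genes whose pattern over the 24 libraries was nearest to that of Cers1, by the root mean square distance between log2 values centred on each gene's mean, were short or unnamed genes. Mir3583, a microRNA gene inside Dnajc8, was at 22.8, 0.0778 and 21.2 in Control, Low and High, with a distance of 0.267. AABR07009787.1, which overlaps no gene on its strand, was at 34.2, 0.593 and 36.3 (distance 0.271). AABR07049466.1 inside Pde4b was at 53.6, 0.440 and 47.4 (distance 0.311) and AABR07031184.2 inside Npc1 at 41.9, 0.5261 and 44.6 (distance 0.325). LOC103689941, with no overlap on its strand, was at 17.95 in Control and 17.9 in High and was listed at 0 in every Low library (distance 0.329). So 3 of the 5 lay inside another gene of the same strand, while 1782 of all 15644 genes tested overlap such a gene. The 5 were picked for likeness to the pattern that chose Cers1. With Low means of at most 0.593, they passed the limit on the mean through Control and High, so the count is a description.

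None of the members was called in High against Control, the comparison in which Cers1 and Gdf1 could be tested. Cers1 differed by -0.04 on the log2 scale (SE 0.11, 95% CI -0.27 to 0.20) and Gdf1 by -0.04 (SE 0.07, 95% CI -0.18 to 0.11), with exact two-sided permutation p values of 0.605 and 0.601 (n = 8 in each group). Of the 6 members, 0 had an adjusted p under 0.05 by limma, with an adjusted p of 0.999 for each, and 0 had an unadjusted p under 0.05. Over all 15644 genes tested the share called was 0%, with 330 genes at an unadjusted p under 0.05, and the exact Wilcoxon rank-sum test also called 0 genes.

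**Figure D3:**
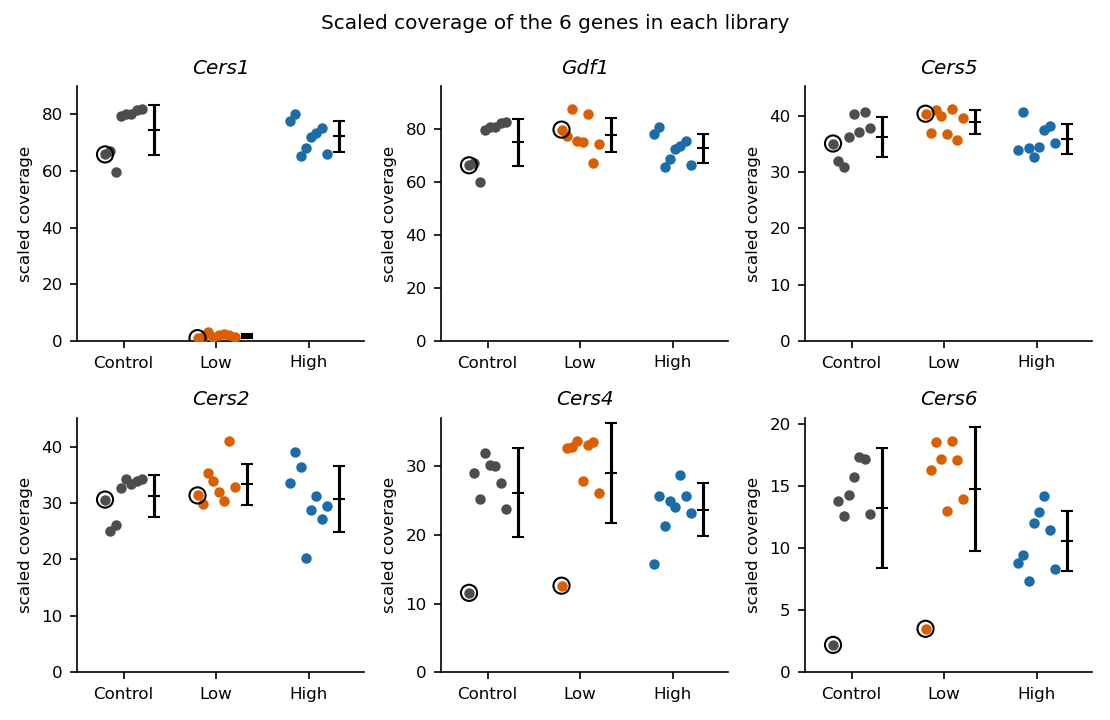
Scaled coverage of the 6 genes in every library (points) by group, with mean and SD as bars, 8 libraries a group, and libraries 49 and 57 ringed. Cers1 in Low lies at 0.985 to 3.07, and the ringed libraries lie below the rest of their group for Cers4 and Cers6.

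By mean scaled coverage, Cers5 was the most highly covered synthase after Cers1 in Control and High, and the most highly covered one in Low. It had the lowest coefficient of variation of Cers2, Cers4, Cers5 and Cers6. Its place above Cers2 depended on the library and on the column. In Low library 63 Cers5 was below Cers2 in both, at 35.8 against 41.0 in scaled coverage and 18.9 against 26.7 in FPKM. In Control library 52 Cers5 was above Cers2 in scaled coverage (36.3 against 32.7) and below it in FPKM (12.8 against 13.4). Cers5 is on the minus strand of chromosome 7 (141386391 to 141424343) with no overlapping gene. Its scaled coverage was 30.9 at the lowest, 36.7 at the median and 40.7 at the highest in Control, 35.8, 39.8 and 41.2 in Low, and 32.6, 34.8 and 40.6 in High. The groups overlapped, with Low somewhat higher in the middle. By limma the difference of Low from Control was 0.10 (SE 0.06, 95% CI -0.02 to 0.23, adjusted p = 0.361) and that of Low from High 0.12 (SE 0.06, 95% CI -0.00424 to 0.241, adjusted p = 0.187). An exact permutation test gave p = 0.0252 for Low against High, and 0.352 after adjustment over the 14 such tests of members.

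Cers2, on the plus strand of chromosome 2 (196487656 to 196496986), shared its last 1120 bases with the end of Setdb1, a histone methyltransferase gene on the opposite strand. Its scaled coverage was 25.0 at the lowest, 33.0 at the median and 34.3 at the highest in Control, 29.8, 32.4 and 41.0 in Low, and 20.2, 30.4 and 39.0 in High. The highest Low library, 63, also had the highest sum of 8 oligodendrocyte markers (8592, with a Low median of 6084), and the lowest High library, 68, the lowest sum (2686, with a High median of 5369). The match did not hold throughout, since Low library 59 had the next highest Cers2 (35.3) and the lowest sum of its group (4561). The part of oligodendrocyte content in the level of Cers2 was not tested, and in bulk tissue fewer cells of a type and less RNA per cell cannot be told apart. The difference of Low from Control was 0.09 (SE 0.10, adjusted p = 0.666) and that of Low from High 0.13 (SE 0.10, adjusted p = 0.403).

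Cers4, on the minus strand of chromosome 12 (4439750 to 4474729), had a scaled coverage of 11.6 at the lowest, 28.2 at the median and 31.8 at the highest in Control, 12.6, 32.7 and 33.7 in Low, and 15.8, 24.5 and 28.6 in High. The lowest values of Control and Low were those of libraries 49 and 57, and the next ones were 23.8 and 26.0. With all 24 libraries the differences were 0.14 for Low from Control (SE 0.19, adjusted p = 0.721) and 0.25 for Low from High (SE 0.19, adjusted p = 0.390). Without libraries 49 and 57 the means were 28.2 ± 2.89 (SD, n = 7), 31.3 ± 3.09 (SD, n = 7) and 23.7 ± 3.82 (SD, n = 8). Low was then higher than High by 0.40 (SE 0.09, 95% CI 0.21 to 0.60, adjusted p = 0.00352, limma), beside 28.8% of all genes called. The difference of High from Control was -0.26 (95% CI -0.45 to -0.06, adjusted p = 0.163, limma). The 2 libraries were chosen after seeing the data and held the lowest Cers4 values of Control and Low. Leaving them out raised the means of those 2 groups and narrowed their spread, so these p-values are descriptions.

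Cers6, on the plus strand of chromosome 3 (55094637 to 55338445), is the longest of the genes and had the lowest level of the 5 synthases in Control and High. Its scaled coverage was 2.22 at the lowest, 14.1 at the median and 17.3 at the highest in Control, 3.51, 16.7 and 18.7 in Low, and 7.34, 10.5 and 14.2 in High. Again libraries 49 and 57 were lowest, and the next values were 12.6 and 13.0. With all libraries the differences were 0.18 for Low from Control (SE 0.31, adjusted p = 0.787), -0.18 for High from Control (SE 0.31, adjusted p = 0.999) and 0.37 for Low from High (SE 0.31, adjusted p = 0.437). Without these 2 libraries, High was lower than Control by limma, with a difference of -0.47 (SE 0.12, 95% CI -0.71 to -0.23, adjusted p = 0.0341), beside 2.49% of all genes called. Low was higher than High by 0.61 (SE 0.12, 95% CI 0.37 to 0.85, adjusted p = 6.88e-04), beside 28.8%. The choice, made after seeing the data, took out the lowest Cers6 values of Control and Low and none of High, so these p-values are descriptions.

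With all libraries, 0 of the 4 synthases tested against Low (Cers2, Cers4, Cers5 and Cers6) were called by limma in Low against Control, where 6.11% of all genes tested were called, and 0 of 4 in Low against High, where 11.7% were. At an unadjusted p under 0.05 the count was 0 of 4 in both, beside 2885 and 4545 of all 15644 genes. The exact Wilcoxon rank-sum test called 0 of 4 in both, beside 372 and 1147 of all genes. Without libraries 49 and 57, a choice made after seeing the data, the members called were 1 of 6 in High against Control beside 2.49% of all genes, and 2 of 4 in Low against High beside 28.8% of all genes, while Low against Control stayed at 0 of 4 beside 4.32%. The FPKM column, which was shifted upward in Low for most genes, gave 4 of 4 in Low against Control beside 89.7% of all genes and 4 of 4 in Low against High beside 89.8%, and the TPM column gave 2 and 1 beside 25.4% and 25.2%, with 0 in High against Control for both. In libraries 49 and 57 the summed astrocyte markers were 775 and 898, below the 1247 to 1755 and 1217 to 1639 of the other libraries of their groups, the endothelial markers were 21.3 and 28.8 against 31.1 to 45.2 and 34.7 to 42.5, and the microglia markers 86.3 and 102 against 87.5 to 156 and 113 to 136, so that both libraries were lowest for 3 lists. Neuron markers were also lowest in library 49 (1582 against 1680 to 2189) and striatum markers in library 57 (255 against 303 to 648), and choroid plexus markers were highest in library 49 (69.9 against at most 23.4). Oligodendrocyte and blood markers lay within the range of the others in both libraries. The part of these shifts in the low Cers4 and Cers6 values was not tested. The summed astrocyte markers were also lower in High, with a median of 1143 (878 to 1409). The medians were 1462 in Control without library 49 and 1518 in Low without library 57, and the ranges overlapped. The genes of the list did not move alike, by their means in Control, Low and High with all libraries. Slc1a2, the glial glutamate transporter, was at 388, 391 and 211, Slc1a3 at 345, 372 and 324 and Gfap at 225, 219 and 208. Gja1 was at 256, 275 and 258, Aqp4 at 158, 124 and 142 and Aldh1l1 at 7.79, 6.71 and 7.62. The part of these markers in the Cers4 and Cers6 differences from High was not tested either.

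**Figure D4:**
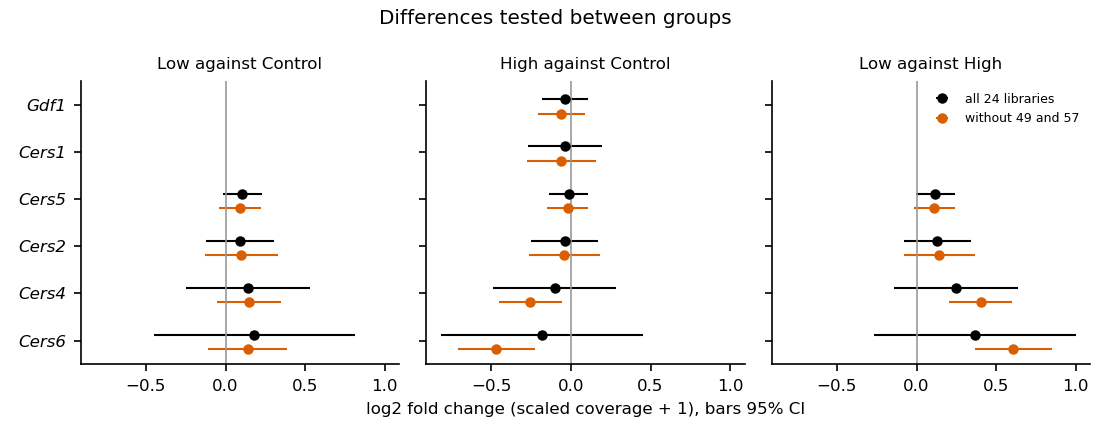
Differences between groups in log2(scaled coverage + 1) with 95% confidence intervals from limma, with all 24 libraries (black) and without libraries 49 and 57 (orange). Cers1 and Gdf1 are shown for High against Control only. For Cers4 and Cers6 the intervals narrow and leave 0 in both comparisons with High once the 2 libraries, chosen after seeing the data, are left out. The adjusted p of Cers4 in High against Control was then 0.163 (limma).

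By mean scaled coverage, the order of the levels was the same in Control and High, namely Gdf1, Cers1, Cers5, Cers2, Cers4 and Cers6. In Control the ranges of neighbours in this order overlapped except between Cers1 and Cers5, and in High also except between Cers4 and Cers6. In Low the order was Gdf1, Cers5, Cers2, Cers4, Cers6 and Cers1, with gaps after Gdf1 and before Cers1. Summed over the 5 synthases, scaled coverage was 181 ± 22.4 (SD, n = 8) for Control, 118 ± 13.8 (SD, n = 8) for Low and 173 ± 12.4 (SD, n = 8) for High. Without Cers1 the sums were 107 ± 14.5, 116 ± 13.3 and 101 ± 8.75 (SD, n = 8 each), with overlapping ranges of 79.5 to 120, 87.8 to 128 and 89.8 to 115. Cers1 made up 41.1% of the summed synthase coverage in Control, 41.8% in High and 1.53% in Low. The sums with Cers1 and these shares rest on bases that Cers1 shares with Gdf1. In Control and High nearly the same coverage was listed for both genes, and in Low almost all of it for Gdf1. How reads were divided is unknown, so they are not plain levels of Cers1 or of all synthases. Cers3, the synthase of skin and testis, was near absent, its group means being 0.0734, 0.0388 and 0.0596 in Control, Low and High.

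The genes next to the members lay at similar means in the 3 groups. Of Upf1, Cope, Ddx49 and Setdb1, 0 of 4 were called by limma in any comparison. Of all genes tested, 6.11% were called in Low against Control, 0% in High against Control and 11.7% in Low against High. At an unadjusted p under 0.05 the single one was Ddx49 in Low against High, where 4545 of all 15644 genes were. Upf1 was at 29.0 ± 4.25, 30.3 ± 3.87 and 28.0 ± 1.37 in Control, Low and High, and Cope at 21.8 ± 1.82, 21.7 ± 2.30 and 21.6 ± 0.702 (SD, n = 8 each). Ddx49 was at 25.8 ± 3.41, 26.5 ± 2.31 and 23.1 ± 2.11 and Setdb1 at 23.2 ± 3.37, 24.7 ± 2.24 and 22.1 ± 1.81 (SD, n = 8 each).

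Around the synthases, 77 genes of sphingolipid metabolism in 6 lists were followed, of which 74 were in the tables and 66 passed the limit on the mean. In Low against Control 1 was higher and 1 lower, beside 1.23% and 4.88% of all genes, and their median difference was 0.07 beside 0.06 over all genes. In High against Control 0 of 66 were called by limma, as were 0 of all 15644 genes. At an unadjusted p under 0.05 were 2 of 66 and 330 of all genes. The exact Wilcoxon rank-sum test called 0, and the median was -0.03, as over all genes. In Low against High 1 was higher and 2 were lower, beside 5.3% and 6.39% of all genes, with a median of 0.11 beside 0.09.

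Among genes that elongate the acyl chains, 1 of 11 was called in each comparison with Low. Of all genes tested, 6.11% were called in Low against Control and 11.7% in Low against High. Elovl1, the elongase of the very long chains that Cers2 uses, had a scaled coverage of 25.8 at the lowest, 31.0 at the median and 34.8 at the highest in Control, 14.6, 15.9 and 25.1 in Low, and 21.2, 32.8 and 41.8 in High. Low did not overlap Control and overlapped High in part. The differences were -0.71 from Control (SE 0.12, adjusted p = 3.59e-04, limma) and -0.76 from High (SE 0.12, adjusted p = 1.21e-04). These were differences of the coverage column alone, since in the FPKM column Elovl1 was higher by 0.41 in Low than in Control (adjusted p = 0.00146, limma), beside a median of 0.53 over all genes, and in the TPM column by 0.01 (adjusted p = 0.936). Tecr, the best covered gene of this list, was at 511 ± 52.1 in Control, 534 ± 76.1 in Low and 516 ± 41.4 in High (SD, n = 8 each).

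Among sphingomyelinases and ceramidases, 1 of 9 was called, in Low against Control, where 6.11% of all genes tested were called. Acer2, an alkaline ceramidase that releases sphingosine from ceramide in the Golgi, had a scaled coverage of 5.48 at the lowest, 7.11 at the median and 10.1 at the highest in Control, 8.84, 10.9 and 14.7 in Low, and 6.27, 8.81 and 11.1 in High. Low rose against Control by 0.58 (SE 0.12, adjusted p = 0.00311, limma), with some overlap. The difference in the FPKM and TPM columns was 0.91 and 0.66, beside medians of 0.53 and 0.17 over all genes. The call was lost on coverage as deposited and with libraries 56 to 62, a set seen in the data, as a covariate, with adjusted p up to 0.205. Smpd1, the acid sphingomyelinase and the best covered of the list, was at 62.3 ± 3.72, 65.4 ± 4.44 and 61.6 ± 2.32 (SD, n = 8 each) in Control, Low and High.

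The list of de novo synthesis holds serine palmitoyltransferase, its ORMDL regulators and the desaturases. Of its 10 tested genes, 0 were called in Low against Control, beside 6.11% of all genes, and 0 in High against Control, beside 0%. In Low against High 1 was called, beside 11.7% of all genes. Ormdl2, which restrains serine palmitoyltransferase, was 20.4 at the lowest, 25.5 at the median and 31.0 at the highest in High and 16.8, 18.5 and 26.6 in Low, with a difference of -0.40 (SE 0.09, adjusted p = 0.00450, limma), while in the FPKM column it differed by 0.04 beside a median of 0.52 over all genes. Ormdl3, the best covered of the list, was at 79.1 ± 15.52, 69.3 ± 10.97 and 80.1 ± 7.95 (SD, n = 8 each). Of the 13 tested genes that transfer ceramide or turn it into sphingomyelin and glycolipids, 1 was called, in Low against High, beside 11.7% of all genes. Ugcg, the glucosylceramide synthase, was higher in Low (54.3, 73.5 and 82.0) than in High (50.7, 59.1 and 73.6) by 0.26 (SE 0.08, adjusted p = 0.0405, limma), a call that was lost in 12 of the 24 fits that left out 1 library, 6 of them Low libraries (57, 58, 59, 60, 62 and 63) and 6 High libraries (65, 66, 67, 69, 71 and 72), with adjusted p up to 0.0917. It was also lost with no filter, on coverage as deposited, with median-of-ratios scaling, by Wilcoxon tests and with libraries 56 to 62 as a covariate, with adjusted p up to 0.952. St3gal5, the ganglioside GM3 synthase, was the best covered there, at 91.0 ± 9.72, 99.8 ± 9.85 and 86.8 ± 9.20 (SD, n = 8 each).

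The remaining lists had no call in any comparison by limma. Over all genes tested, 6.11% were called in Low against Control, 0% in High against Control and 11.7% in Low against High. In the same order, 2885, 330 and 4545 of all 15644 genes had an unadjusted p under 0.05. For sphingosine 1-phosphate, 0 of 10 were called, with 1, 0 and 3 at an unadjusted p under 0.05 in Low against Control, High against Control and Low against High, and S1pr1, its receptor and the best covered gene, was at 107 ± 12.7, 115 ± 5.35 and 102 ± 12.6 (SD, n = 8 each). For lysosomal breakdown of glycosphingolipids, 0 of 13 were called, with 1, 0 and 0 at an unadjusted p under 0.05, and Psap, the precursor of the saposin activators, was at 944 ± 70.5, 1000 ± 63.1 and 931 ± 38.9 (SD, n = 8 each).

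**Figure D5:**
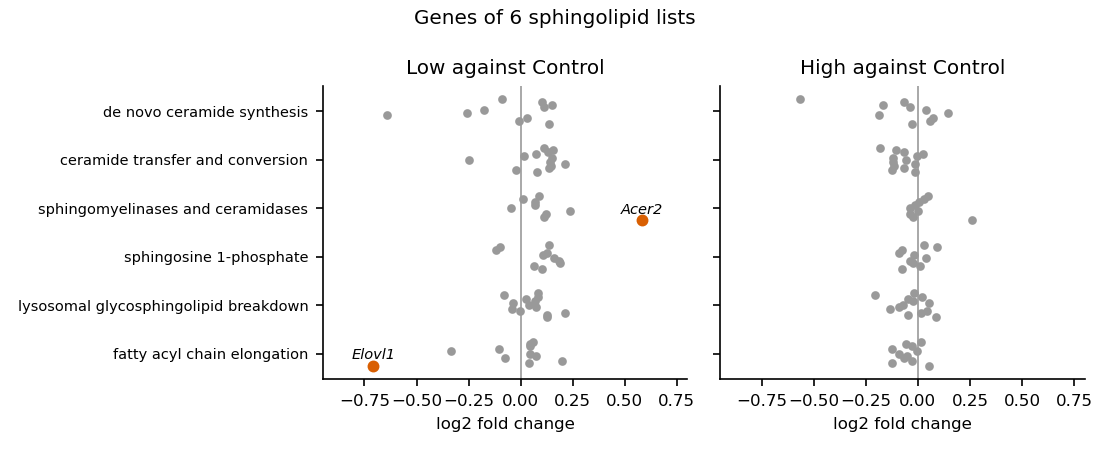
Difference in log2(scaled coverage + 1) for each tested gene of the 6 sphingolipid lists, in Low against Control and in High against Control, with genes called by limma in orange. Acer2 at 0.58 and Elovl1 at -0.71 are the 2 genes called in Low against Control, and no gene is called in High against Control.

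Around Gdf1, 15 genes for its relatives, receptors, Smads and antagonists were listed and 10 tested. Lefty2, an extracellular inhibitor of Nodal, was low in Control (1.07 at the lowest, 1.27 at the median, 2.21 at the highest) and High (1.27, 1.82 and 2.24) and was listed at 0 in all 8 Low libraries. It passed the limit on the mean only through Control and High, so no test and no fold are given for it. No gene on its own strand overlaps it. Acvr1c, a type I receptor of this family, was higher in Low (2.06, 5.86 and 7.09) than in High (1.71, 2.65 and 4.94) by 0.71 (SE 0.23, adjusted p = 0.0482, limma), but of the 24 fits that left out 1 library the call held in 5 (without Control library 49, Low library 57 or 61, or High library 68 or 70), and in the other 19 the adjusted p was up to 0.1004. It was also lost with a pseudocount of 0.1, no filter, coverage as deposited, median-of-ratios scaling, Wilcoxon tests and the covariate for libraries 56 to 62, with adjusted p up to 0.286. Acvr1b, the type I receptor that Gdf1 shares with Nodal and the best covered gene of this list, was at 64.0 ± 6.72 in Control, 72.2 ± 6.22 in Low and 62.7 ± 6.02 in High (SD, n = 8 each).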

How the data were processed

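Frontal cortex RNA of 24 rats was measured, 8 in each group, with groups taken from the sample labels. Per the labels and the methods, the authors prepared stranded libraries from polyadenylated RNA, and the submitters' processing notes name FastQC, Trimmomatic, TopHat2, StringTie and the build mRatBN7.2, with versions not given in the sources used here. The deposited coverage is a signal, the mean read depth per base of each gene, not scaled for depth. The deposited FPKM was scaled by the authors' program for length and depth. In the deposited TPM column all genes of a Low table add up to 1000000, while in Control and High the assembled loci do so without the reference genes. Read counts were not analysed here, so depth per gene is unknown.

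Coverage was summed per gene identifier (34 genes on more than 1 row) and scaled as described. Genes with a mean of at least 1 were tested with limma 3.58.1 (trend, robust; R 4.3.3) on log2(scaled coverage + 1), 3 groups in 1 fit, two-sided, with Benjamini-Hochberg adjustment over 15644 genes and a threshold of 0.05. The scale understates changes of low genes. Exact permutation tests used the difference of means over 12870 arrangements. The limma step was tested on simulated data. Python 3.11.15, pandas 2.3.3 and scipy 1.17.1 were used. Whether rats are independent of shared cages or days is not stated, so p-values measure the spread between these samples. No 2 libraries held identical values (0 pairs).

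The members and lists were chosen with earlier results of these data known. Values of 1 marker gene are not reported here, and it was left out of its list. Named genes are the members, other Cers genes, genes overlapping a member or within 20 kb of Cers1, list genes called (or the best covered of a list), and the 5 genes nearest in pattern to Cers1. Alternatives were a pseudocount of 0.1, no filter or a minimum mean of 5, deposited coverage, median-of-ratios scaling, FPKM, TPM, only the groups compared, exact Wilcoxon tests, libraries 56 to 62 as a covariate (grouped from a pattern in the data, not a condition), each library left out, and, added after seeing the data, libraries 49 and 57 left out together.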

Additional observations from a re-analysis of the deposited data

Results flagged for a closer look

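Among the 18 sets of 8 values (6 genes in 3 groups), 4 held a library far from the rest of its group by Dixon's test, where chance gives about 1 in 20, or 0.9 of 18. Cers4 was 11.6 in Control library 49, with the others at 23.8 to 31.8, and 12.6 in Low library 57, with the others at 26.0 to 33.7. Cers6 was 2.22 in Control library 49, with the others at 12.6 to 17.3, and 3.51 in Low library 57, with the others at 13.0 to 18.7. The same 2 libraries account for all 4, and they stood far below their groups for 9.92% and 5.38% of all genes tested.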

How the results depend on the processing

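No paired analysis was possible because the groups share no replicate numbers. In Low against Control, 0 of the 4 synthases and 2 sphingolipid genes were called, beside 6.11% of all genes tested. The FPKM column gave 4 and 61 beside 89.7% of all genes, and the TPM column 2 and 15 beside 25.4%. Deposited coverage gave 1 sphingolipid gene and the covariate for libraries 56 to 62 also 1. The median of all genes was 0.53 in FPKM and 0.17 in TPM, against 0.06 for scaled coverage. In Low against High, 0 and 3 were called, beside 11.7% of all genes. FPKM gave 4 and 61 beside 89.8%, and TPM 1 and 16 beside 25.2%. Leaving out libraries 49 and 57 gave 2 and 12 beside 28.8%. Of sphingolipid genes, median-of-ratios scaling gave 5, only the groups compared 6, Wilcoxon tests 1 and the covariate 1. In High against Control, leaving out libraries 49 and 57 gave 1 synthase (0 with all), beside 2.49% of all genes. The shares of all genes called under the other alternatives are not given here, so those counts are not read as a result about these genes. With 1 library left out, the sphingolipid count was 2 to 4 in Low against Control (4 without Control library 56) and 2 to 8 in Low against High (8 without Control library 49, 7 without Low library 61, 6 without High library 70), and all other counts were 0 to 0.

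The log2 difference of Cers1 in Low from Control was -5.34 with a pseudocount of 0.1, -5.07 on deposited coverage and -3.82 in FPKM. Gdf1 in Low from Control ranged from -0.05 with the covariate to 0.56 in FPKM. Differences of High from Control changed sign with deposited coverage, to 0.14 for Cers1, 0.14 for Cers2, 0.076 for Cers4, 0.17 for Cers5 and 0.14 for Gdf1, with a median of 0.14 over all genes. They did so in FPKM (Cers1 0.011, Cers5 0.031, Gdf1 0.0099), in TPM (Cers1 0.011, Cers5 0.032, Gdf1 0.010) and with median-of-ratios scaling (Cers5 0.022). Low from High changed sign on deposited coverage for Cers2 (-0.082) and Cers5 (-0.10). With 1 library left out, High from Control ranged from -0.091 to 0.040 for Cers2 and from -0.045 to 0.0099 for Cers5, and Low from Control from -0.0083 to 0.30 for Cers4 and from -0.104 to 0.42 for Cers6. Of 420 values of the 4 synthases under alternatives, 14 passed the threshold and 14 changed sign. Ormdl2 in Low against High lost its call in FPKM, by Wilcoxon tests and with the covariate. The cause was not tested. Without read counts, no floor can be given for low values such as Cers1 in Low.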
